A study of Mus musculus with 14 samples.

Results

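Chromatin accessibility was followed at the SoxF genes Sox17, Sox7 and Sox18 while mouse embryonic stem (ES) cells were driven towards primitive endoderm (PrE) by GATA6. The deposited peak lists of 14 ATAC-seq libraries were merged into 124598 regions wherever peaks overlapped by at least 1 bp. A region was assigned to a gene if that gene's 5′ end was the nearest transcription start site (TSS) of any protein-coding gene and lay within 50 kb of the region's midpoint. By this rule 19 of the 124598 regions belonged to the SoxF genes, of which 11 went to Sox17, 6 to Sox7 and 2 to Sox18. The rule uses position alone and no change over time.

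The cells were KH2 mouse ES cells, given in the labels as strain C57BL/6, and all of them carried a single-copy transgene in which a tetracycline-responsive element drives GATA6 and DsRed2 upon addition of doxycycline (Dox). At 0 h the cells were in serum-free medium with LIF and inhibitors of MEK and GSK3, without Dox. All later cells were in serum medium with LIF, with Dox at 1 µg/mL throughout for the 2, 4 and 8 h time points, and with Dox for 12 h followed by serum medium alone for the 16, 24 and 48 h time points. Each time point had 2 libraries of 50000 cells, made from the bulk culture of 1 cell line. Since cells held in serum without Dox were not part of the series, the change of medium and the induction of GATA6 cannot be told apart. A peak within 1 kb of the TSS was called at 7 of 8 pluripotency genes in each 0 h library and at 6 of 8 in each 48 h library. Nanog was called in neither library at 48 h, nor at 8 h, but in both at 16 h. For 10 PrE genes this number was 4 in each 0 h library and 7 to 8 at 48 h. Gata4, Pdgfra, Foxa2, Hnf4a and Cubn, called in no 0 h library, had such a peak in at least 1 library at 48 h. Dab2 had none at either time, and Sparc was called in both 0 h libraries but in neither at 48 h. Since SoxF genes are also expressed in endothelium, 6 endothelial genes were counted too. Of these 3 were called in each library of 0 h and 48 h and up to 4 between, with Pecam1 and Tie1 in none at any time. The 3 were not the same genes: Tek was called at 0 h but not at 48 h, and Cdh5 at 48 h but not at 0 h. Of 5 trophectoderm genes 3 were called in every library, and of 4 fibroblast genes 0 to 1 at 0 h and 2 at 48 h. The part of such cells in the results was not tested.

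SoxF proteins are transcription factors that bind DNA through an HMG box, a domain which bends the double helix in its minor groove. SOX17 is a marker of PrE and definitive endoderm and acts in both, SOX7 is expressed in PrE and its parietal derivative, and SOX18 is best known from blood and lymphatic vessel development, in which all 3 act. ATAC-seq uses a transposase that inserts sequencing adapters where DNA is free of nucleosomes, so that a peak marks open chromatin at a promoter or another cis-regulatory element (CRE). GATA factors bind the letters GATA when A or T stands before them and A or G after, which gives 4 spellings, for example AGATAA.

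The sequences below come from regions that carry the main changes described here and were read from the GRCm38 plus strand. Distances are from a region's midpoint to the gene's 5′ end. The first is the upstream end of the Sox7 TSS region, which was called only at late time points. It stops short of the transcription start at 63943673, and the bases next to that start are left out. Peaks covered 313 bp of this region in replicate 2 at 24 h, 422 bp in replicate 1 at 48 h and all 763 bp in replicate 2 at 48 h. Where the shorter peaks lay is not given here, so only the last is known to span the printed stretch. The second is the centre of the Sox7 region that was called early and then no longer. The last 2 are the centres of distal Sox17 regions, 1 upstream and 1 downstream, which were the earliest of that gene to be called after induction. Capitals mark matches to the GATA spellings on either strand (TTATCT is AGATAA read on the other strand).
Sox7 TSS region, upstream stretch of 230 bases, chr14:63943193-63943422: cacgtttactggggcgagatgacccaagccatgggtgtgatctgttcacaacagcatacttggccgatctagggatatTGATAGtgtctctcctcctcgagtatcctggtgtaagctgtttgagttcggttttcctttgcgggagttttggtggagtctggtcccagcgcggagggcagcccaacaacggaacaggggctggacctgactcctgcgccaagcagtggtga
Sox7 region 7046 bp upstream, central 300 bases, chr14:63936478-63936777: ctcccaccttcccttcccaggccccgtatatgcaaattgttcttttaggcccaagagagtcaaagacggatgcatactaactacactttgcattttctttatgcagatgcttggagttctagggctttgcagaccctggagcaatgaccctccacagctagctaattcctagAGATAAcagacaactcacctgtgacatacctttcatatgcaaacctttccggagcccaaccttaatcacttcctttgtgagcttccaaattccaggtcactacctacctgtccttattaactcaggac
Sox17 region 40299 bp upstream, central 300 bases, chr1:4537504-4537803: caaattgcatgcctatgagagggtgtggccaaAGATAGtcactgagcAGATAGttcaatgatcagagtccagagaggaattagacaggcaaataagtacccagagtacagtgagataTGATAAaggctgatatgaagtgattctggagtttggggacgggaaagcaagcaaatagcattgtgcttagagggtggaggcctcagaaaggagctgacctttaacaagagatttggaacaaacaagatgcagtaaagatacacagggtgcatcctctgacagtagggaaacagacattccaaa
Sox17 region 22743 bp downstream, central 300 bases, chr1:4474462-4474761: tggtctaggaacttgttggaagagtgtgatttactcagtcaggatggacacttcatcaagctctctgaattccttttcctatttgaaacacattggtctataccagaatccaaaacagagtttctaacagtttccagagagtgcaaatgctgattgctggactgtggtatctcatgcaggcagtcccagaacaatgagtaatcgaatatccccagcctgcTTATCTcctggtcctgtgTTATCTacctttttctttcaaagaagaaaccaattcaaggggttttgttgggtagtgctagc
These stretches hold 1, 1, 3 and 2 matches, in the order given. The whole Sox7 TSS region holds 2, of which 1 lies in its central 200 bp, beyond the stretch printed.

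Sox17 went from few accessible regions to many during differentiation. The 0 h libraries had 2 and 3 called regions (replicates 1 and 2), the 2 h libraries 2 and 2, the 4 h libraries 3 and 3, and the 8 h libraries 4 and 3. By 16 h the libraries had 8 and 7, by 24 h 10 and 10, and by 48 h 10 and 9. The 3 latest time points did not overlap the 4 earliest, as the plot of called regions per library shows. All of the 3 latest were sampled after Dox removal and none of the 4 earliest was. Elapsed time and Dox removal therefore cannot be told apart for this step, nor for regions first called from 16 h on. Sox7 had 1 to 3 called regions in each of the 12 libraries up to 24 h (2 and 2 at 0 h, 1 and 3 at 24 h) and 4 and 4 at 48 h, so that only its 48 h libraries stood above the others. For Sox18 no region was called at 0, 2, 4, 24 or 48 h, and 1 region was called in replicate 2 at 8 h and in each library at 16 h.

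**Figure D1:**
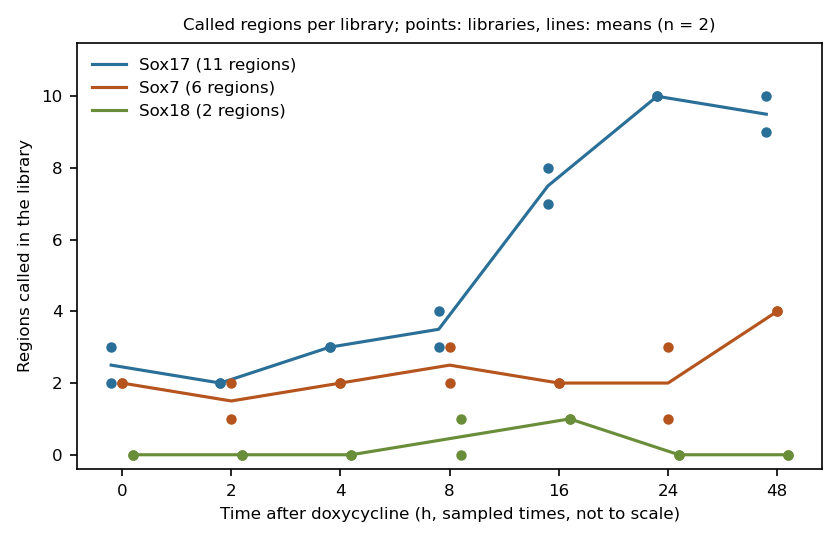
Number of called regions per library (y axis) at each sampled time after Dox (x axis, in h, not to scale) for Sox17, Sox7 and Sox18, with points for single libraries and lines through the means (n = 2). Sox17 reached 10 called regions in both 24 h libraries, Sox7 reached 4 in both 48 h libraries and Sox18 never exceeded 1.

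Of the 19 SoxF regions, 4 were called in both libraries at 0 h, where 37.8% of all merged regions were. Both 2 h libraries called 3 (39.2% of all regions), both 4 h libraries 5 (39.8%) and both 8 h libraries 5 (38.8%). The count was 8 for 16 h (41.9%), 11 for 24 h (36.7%) and 13 for 48 h (36.5%). The share of all regions changed little, while the SoxF count was lowest at 2 h and highest at 48 h. Libraries of the same time point differed at 13 of the 133 pairs of a SoxF region and a time point (9.77%), against 13.2% over all regions.

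A region was termed gained if both 48 h libraries and neither 0 h library called it. It was termed lost if the opposite held and shared if all 4 libraries called it. Of the SoxF regions, 10 were gained (14.5% of all regions), 2 were lost (16.6%), 2 were shared and 5 fell into none of these classes. Sox17 had 7 gained and 1 lost, Sox7 had 3 gained and 1 lost, and Sox18 had neither. With 2 libraries against 2 an exact two-sided test cannot go below p = 0.333, so these counts carry no p-value. Among 17806 protein-coding genes with any region, 41 (0.23%) had 7 or more gained regions like Sox17, while 1484 (8.33%) had 11 or more regions in all. For Sox7 the corresponding numbers were 1164 genes (6.54%) with 3 or more gained regions and 31.4% with 6 or more regions. The median gene had 4 regions and none gained. The Sox17 count depended on which genes could claim a region: with genes of every biotype as candidates, 0 gained regions stayed with Sox17, since noncoding genes and pseudogenes start closer to them.

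**Figure D2:**
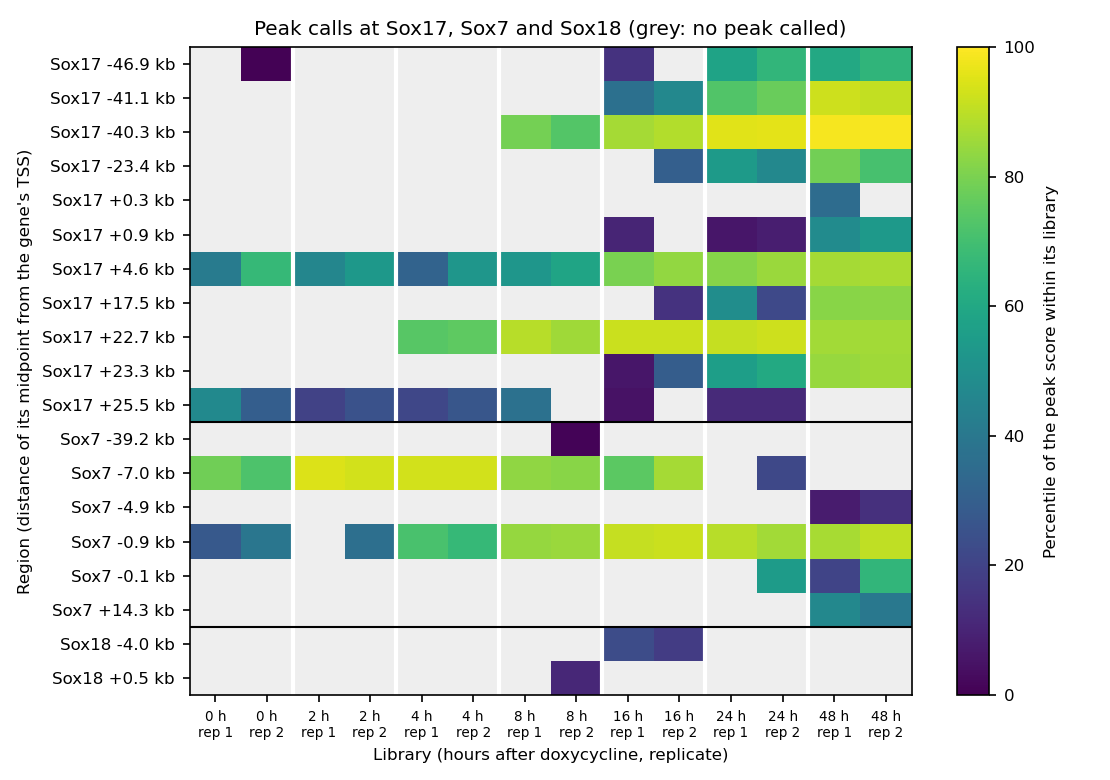
Peak calls at the 19 SoxF regions (rows, named by gene and distance in kb from the TSS to the region's midpoint, negative upstream) in the 14 libraries (columns, ordered by h after Dox), with colour for the percentile of the peak's score within its library and grey where no peak was called. For Sox17, 2 rows are filled in both libraries at 0 h, 3 at 4 h and most at 24 and 48 h, whereas the gained regions of Sox7 are filled only in the last columns.

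Each region was also tested for a trend over all 14 libraries, from the ranked times of those that called it, with an exact permutation test (two-sided). The 79559 regions called in 2 to 12 libraries were tested together with Benjamini-Hochberg adjustment at 0.05, and 14 of the 19 SoxF regions were among them. Of these, 8 rose over time (12.1% of all tested regions), 7 of them at Sox17 and 1 at Sox7. Only 1 fell (12.3% of all tested regions), at Sox7. The 7 rising Sox17 regions were the same 7 that were gained at 48 h, and each had an adjusted p of 0.013 in this exact test, the smallest value reached by any region. Without the 0 h libraries, and so within serum medium alone, 7 SoxF regions rose, all at Sox17 (6 of these 7 and the region 46854 bp upstream). The region 22743 bp downstream, called in all of those libraries but the 2 h ones, then had an adjusted p of 0.0622 in the exact test. With 1 library per time point no region could pass. The study describes its replicates as independent experiments, but the labels do not say which cultures the libraries came from, so the p-values measure the spread between these libraries.

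The Sox17 regions opened in sequence. The region 22743 bp downstream of the TSS (chr1:4474328-4474894, intergenic, 567 bp) came first, being called in no library at 0 or 2 h and in every library from 4 h on. It was followed by the region 40299 bp upstream (chr1:4537345-4537961, intergenic, 617 bp), called in none of the 6 libraries up to 4 h and in all 8 from 8 h. Each has a neighbour less than 1 kb away that was called later. The neighbour 23326 bp downstream (chr1:4473806-4474250) and the neighbour 41071 bp upstream (chr1:4538187-4538664) were called in none of the 8 libraries up to 8 h and in all 6 from 16 h. Both arms of the locus therefore held an early region and a later one beside it. The gaps within these pairs are short, from 4474250 to 4474328 and from 4537961 to 4538187. The members of a pair count as separate regions because no peak joined them, so the later calls depend on these gaps.

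At 24 h a further 4 Sox17 regions were first called in both libraries. They lay 17523 bp downstream (chr1:4479616-4480046), 885 bp downstream (chr1:4496113-4496825), 23423 bp upstream (chr1:4520490-4521064) and 46854 bp upstream (chr1:4543846-4544571) of the TSS. Each of the 4 was called in 1 of the 2 libraries at 16 h and in both at 24 and 48 h. The most distal of them was also called in 1 of the 2 libraries at 0 h, at a score percentile of 0.684, and did not pass the trend test (adjusted p = 0.103, exact permutation test). The region 885 bp downstream lies nearest the gene's 5′ end among these: 5 annotated Sox17 transcript starts lie inside it, in exons and untranslated sequence, and an exon of the noncoding gene Gm37587 overlaps it. A small region of 173 bp beside it, 305 bp downstream of the TSS, was called in replicate 1 at 48 h alone.

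**Figure D3:**
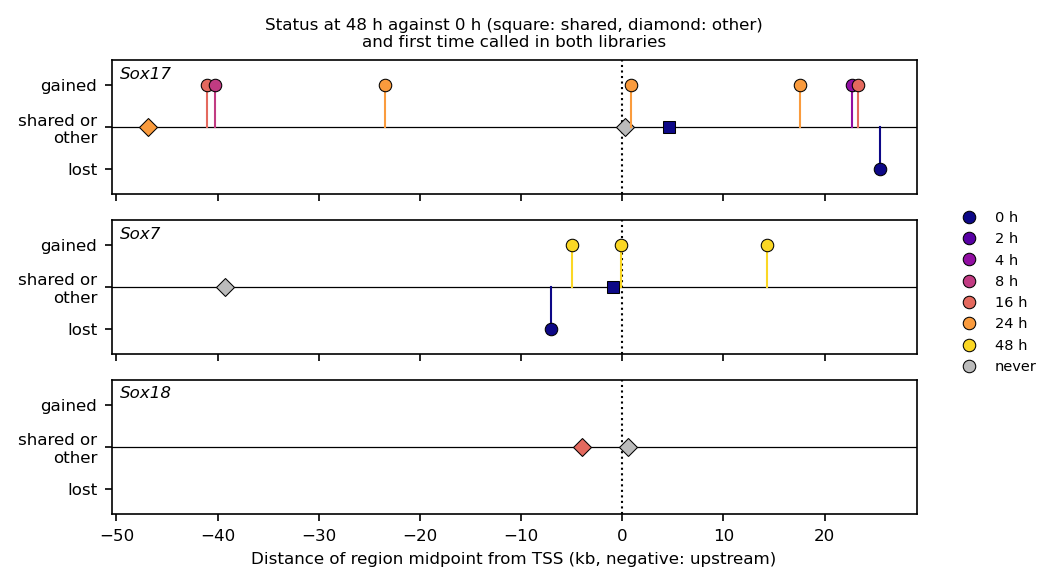
Distance of each region's midpoint from the TSS (x axis, in kb, negative upstream, dotted line at the TSS) against its status at 48 h relative to 0 h (gained, shared or other, lost) for Sox17, Sox7 and Sox18, with colour for the first time point called in both libraries. Gained Sox17 regions lie on both sides of the TSS, the earliest at 22743 bp downstream and 40299 bp upstream, and the 3 gained Sox7 regions were all first called in both libraries at 48 h.

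The other 2 Sox17 regions were accessible in ES cells. The broad region whose midpoint is 4588 bp downstream of the TSS (chr1:4491689-4493844, 2156 bp) covers coding and untranslated exons of Sox17 with 2 further transcript starts, and was called in all 14 libraries. The length covered by peaks was 1727 ± 236 bp at 0 h, 2062 ± 21.9 bp at 4 h, 1422 ± 635 bp at 16 h and 640 ± 143 bp at 48 h (SD, n = 2). At 0 h a single peak spanned 4492285 to 4493844 in replicate 1 and 4491951 to 4493844 in replicate 2. At 48 h the main peak spanned 4493306 to 4493844 and 4493290 to 4493844, and replicate 2 kept a second peak from 4492041 to 4492226. Both 48 h libraries thus had shorter coverage than both 0 h libraries, with the remaining main peak at the end that holds the transcript starts. The region farthest downstream, 25462 bp from the TSS (chr1:4471421-4472364), was called in both libraries at 0, 2 and 4 h, in replicate 1 at 8 and 16 h, in both at 24 h and in neither at 48 h. It was lost by the 48 h rule, but its trend did not pass the test (adjusted p = 0.126, exact permutation test). When a peak had to cover 50% of a region it fell, with an adjusted p of 0.015 in that exact test.

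Sox7 followed another course, with 1 region exchanged for others close to the gene. The region 7046 bp upstream (chr14:63936224-63937030, intergenic, 807 bp) was called in both libraries from 0 to 16 h, in replicate 2 at 24 h and in neither at 48 h. It fell over time (adjusted p = 0.0451, exact permutation test). The region at the TSS itself (chr14:63943193-63943955, 763 bp), which covers the first exon with coding and untranslated sequence, was called in no library up to 16 h, in replicate 2 at 24 h and in both at 48 h. It rose with the mirrored pattern and the same adjusted p of 0.0451 in the exact permutation test. Neither call held without the 0 h libraries, where each had an adjusted p of 0.0605 in that exact test. The TSS region also missed the threshold (adjusted p = 0.0591, exact permutation test) when a peak had to cover 50% of a region.

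A pair of other Sox7 regions, 4925 bp upstream (chr14:63938603-63938893) and 14253 bp downstream (chr14:63957633-63958220), were called in both 48 h libraries and in no other. They count as gained but not as rising, since calls in 2 libraries gave an adjusted p of 0.0541 in the exact permutation test. The region 942 bp upstream (chr14:63942318-63943144, intergenic, 827 bp) was called in 13 libraries, all but replicate 1 at 2 h, and so was not tested. It ends shortly before the TSS region starts at 63943193. The 2 count as separate regions because no peak joined them, so the late call at the TSS depends on this short gap. The sixth region, 39236 bp upstream in an intron of Pinx1 (chr14:63904274-63904601), was called in replicate 2 at 8 h alone. The accessible region next to the Sox7 TSS was therefore present in ES cells, and the TSS itself gained its call at the end of the series.

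Sox18 showed no lasting change. The region over its TSS and coding exons (chr2:181670429-181671759, 1331 bp, midpoint 546 bp downstream) was called in replicate 2 at 8 h only, at a score percentile of 11.1. The region 4006 bp upstream (chr2:181675487-181675805, intergenic) was called in both libraries at 16 h, at percentiles of 23.4 and 17.6, and in no library at another time. Its trend did not pass (adjusted p = 0.704, exact permutation test). A region that is not called may still be open below a library's calling threshold, and the peak lists do not give read depth.

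Over the 16 SoxF regions that were ever called in both libraries of a time point, the median first time was 16 h, with those already called at 0 h included. The 4 regions called in both libraries at 0 h were 2 at Sox17 and 2 at Sox7. No further region was first called at 2 h, while 4 h and 8 h each added 1, 16 h added 3, 24 h added 4 and 48 h added 3. Apart from 1 Sox18 region at 16 h, those from 4 to 24 h were all at Sox17 and those at 48 h all at Sox7.

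The score that comes with each peak has no stated scale, so it was turned into a percentile among all peaks of the same library. At the Sox7 region 942 bp upstream the percentile was 28.0 and 39.1 at 0 h, 36.7 in the 2 h library that called it, 71.1 and 66.8 at 4 h and 84.3 and 84.9 at 8 h. It then stood at 91.4 and 91.8 (16 h), 89.2 and 86.3 (24 h) and 87.0 and 90.5 (48 h). Every library from 4 h on lay above every earlier one that called the region. The broad Sox17 region had percentiles of 41.7 and 66.8 at 0 h, 31.7 and 52.6 at 4 h, 80.0 and 83.8 at 16 h and 86.5 and 87.4 at 48 h, with its 16, 24 and 48 h libraries above all others. Both of these shared regions ranked higher in each 48 h library than in each 0 h library, as 42.7% of all 23317 shared regions did. The mean difference between 48 h and 0 h was 55.1 percentile points at the Sox7 region, from 33.6 to 88.7, and 300 shared regions (1.29%) shifted upward by as much. At the Sox17 region it was 32.7, from 54.3 to 87.0, and 1975 (8.47%) shifted by as much, against a median of 2.38 over all shared regions.

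**Figure D4:**
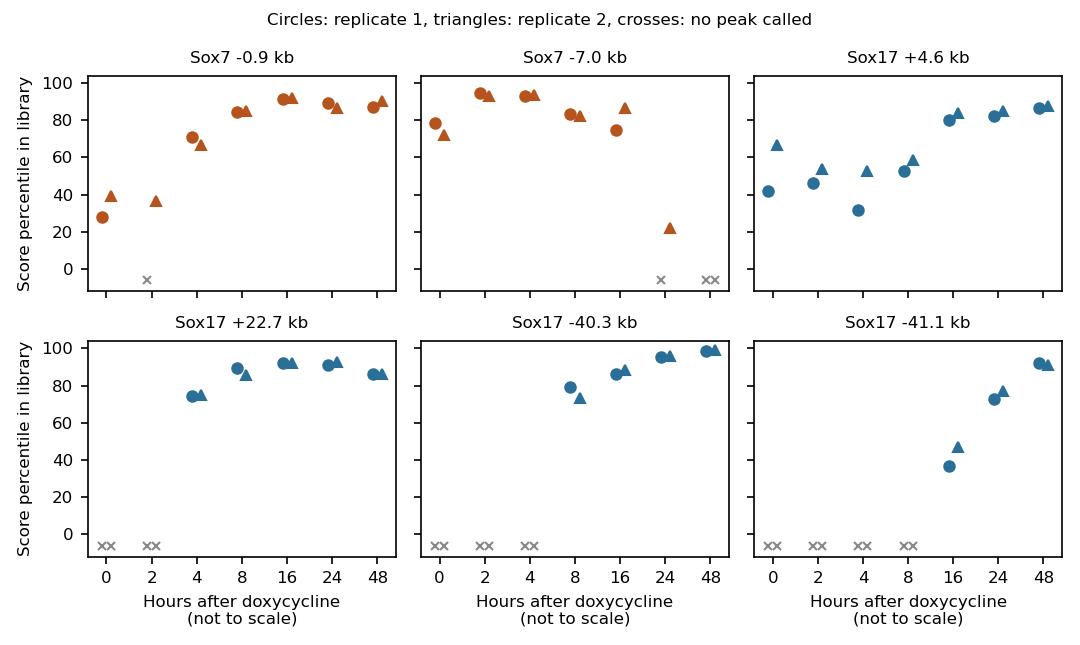
Percentile of the peak score within its library (y axis) by h after Dox (x axis, not to scale) for 2 Sox7 and 4 Sox17 regions, with circles for replicate 1, triangles for replicate 2 and crosses where no peak was called. The Sox7 region 7046 bp upstream drops from 74.9 and 86.4 at 16 h to 21.8 or no call at 24 h, and the Sox17 region 40299 bp upstream climbs to 98.8 and 99.0 at 48 h.

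The lost Sox7 region was among the stronger peaks before it disappeared from the lists. Its percentile was 78.2 and 72.2 at 0 h, 94.8 and 93.1 at 2 h and 93.0 and 93.3 at 4 h. It was 83.5 and 82.1 at 8 h, 74.9 and 86.4 at 16 h and 21.8 in the only 24 h library that called it. The highest values were thus those of 2 and 4 h, after the change to serum and Dox. The lost Sox17 region was weaker, at 47.5 and 29.8 at 0 h, 19.6 and 25.3 at 2 h and 12.1 and 12.1 at 24 h.

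Among the gained regions the earliest ones entered the lists at high rank. The Sox17 region 22743 bp downstream stood at 74.2 and 75.0 when first called at 4 h, at 92.1 and 92.1 at 16 h and at 86.1 and 86.2 at 48 h. The region 40299 bp upstream stood at 79.0 and 73.2 when first called at 8 h, at 95.6 and 95.8 at 24 h and at 98.8 and 99.0 at 48 h, the highest percentiles of any SoxF region. Their later neighbours entered lower, the one 41071 bp upstream at 37.0 and 46.8 and the one 23326 bp downstream at 5.90 and 29.6 at 16 h, and stood at 92.3 and 90.9 and at 84.4 and 85.7 at 48 h. The Sox17 region 885 bp downstream, with 5 transcript starts, stood at 6.24 and 8.31 at 24 h and at 48.3 and 54.0 at 48 h. At Sox7 the gained regions had percentiles at 48 h of 43.3 ± 32.1 (TSS region), 43.3 ± 4.68 (14253 bp downstream) and 10.9 ± 4.41 (4925 bp upstream; SD, n = 2), so that the 2 libraries differed most at the TSS.

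A match to 1 of the 4 GATA spellings lay within the central 200 bp of 13 of the 19 SoxF regions (68.4%), against 44273 of all 124598 regions (35.5%). Matches were found at 5 of 6 Sox7 regions, 8 of 11 Sox17 regions and neither Sox18 region, and at 8 of the 10 gained regions. A control with the inner letters permuted to AGTA (for example AAGTAA) was found at 6 of 19 (31.6%), against 21.2% of all regions. In the whole length of the regions the GATA share was 68.4% for the SoxF regions and 57.8% for all, with the permuted control at 78.9% and 45.4%. The higher share of the SoxF regions was thus seen for both motifs, and no test was made since regions are not replicates. The SoxF regions were wider, with a median of 588 bp against 489 bp for all regions, so whole-length shares of any motif are not compared at equal width. The median GC content of the central window was 50.5% in both sets.

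The early Sox17 regions printed above held 2 matches (22743 bp downstream) and 4 matches (40299 bp upstream) in their full length, and 4 was the largest number at any SoxF region. Among the gained regions no match was found at 23326 bp downstream or 23423 bp upstream of Sox17. The lost region 7046 bp upstream of Sox7 and the lost region 25462 bp downstream of Sox17 held matches as well, 1 and 2 in full length. The core SOX letters ACAAT, sought on both strands, were in the central window of 5 of 19 regions (26.3%), all of them at Sox17, against 28.7% of all regions. The AP-1 letters TGAGTCA were in no central window, against 9.2% of all regions, and in 1 SoxF region in full length, against 17.0% of all. The octamer ATGCAAAT, recognised by OCT4 and other POU factors and sought after the sequence was seen, matched 1 SoxF region in full length, the lost Sox7 region, against 4.57% of all regions.

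The rest of the SOX family was compared by the same rule. The 16 other SOX genes had 109 regions, of which 13 were gained (11.9%) and 17 lost (15.6%), close to the shares of all regions. Among them 4 genes had more gained than lost regions, 7 had more lost and 5 had equal numbers. Sox4, a SoxC gene, had the most gained with 3 and none lost. Sox2, the SoxB1 gene of pluripotent cells, had 1 gained and 2 lost.

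Genes of the PrE network differed from this. The 18 genes, among them transcription factors, endocytic receptors and basement membrane proteins, had 247 regions, of which 75 were gained (30.4%) and 29 lost (11.7%). In the trend test, which covers only regions called in 2 to 12 libraries, 42 rose and 13 fell. How many of the 247 regions were tested is not given here, so these counts cannot be read as shares. Over all tested regions 12.1% rose and 12.3% fell. More regions were gained than lost at 16 of these genes, the exceptions being the FGF receptor gene Fgfr2 (0 gained, 3 lost) and the nidogen gene Nid1 (0 gained, 4 lost). The growth factor receptor gene Pdgfra had 9 gained regions, and the transcription factor genes Gata4 and Foxa2 and the endocytic receptor gene Cubn had 7 each like Sox17. Sox17 had as many gained regions as these with 11 regions in all, against 15 at Gata4 and 18 at Foxa2.

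**Figure D5:**
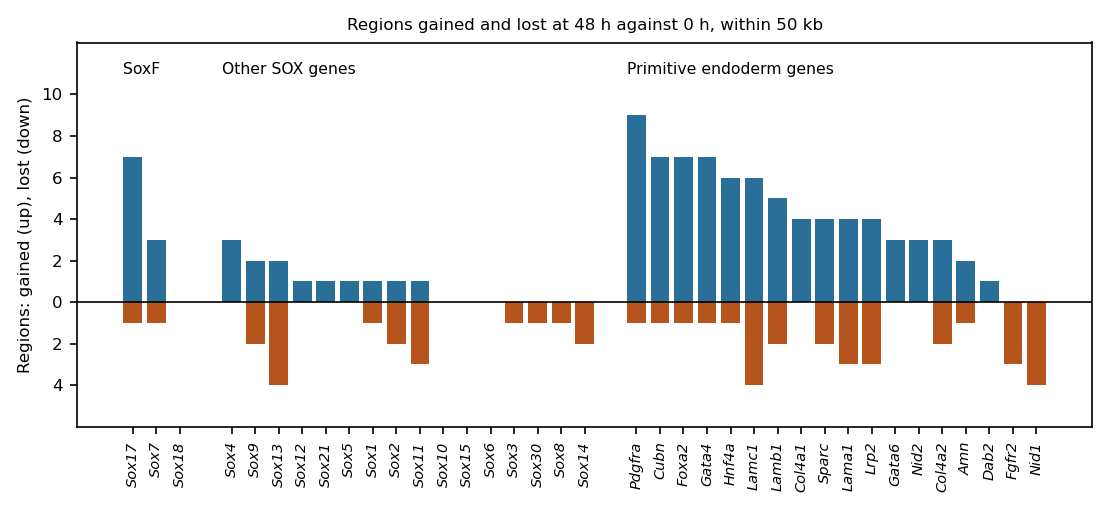
Number of regions gained (blue, upward) and lost (orange, downward) at 48 h relative to 0 h within 50 kb of each gene (y axis) for the SoxF genes, 16 other SOX genes and 18 PrE genes (x axis). Sox17 has 7 gained regions, the number also seen at Cubn, Foxa2 and Gata4, and no SOX gene outside SoxF has more than 3.

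The genes around the SoxF loci were also examined, since the nearest TSS need not be the target of a region. The 14 protein-coding genes whose 5′ end lies within 100 kb of a SoxF gene's had 45 regions, of which 15 were gained (33.3%) and 1 was lost (2.22%). Among those covered by the trend test, whose number is not given here, 10 rose and none fell. Of all tested regions in the series 12.1% rose and 12.3% fell. Beside Sox7, 4 of 6 regions of Rp1l1, whose TSS lies 48833 bp away, and 3 of 4 regions of the uncharacterised gene 4930578I06Rik, 44117 bp away, were gained. Beside Sox17, Rp1 had 2 of 6 regions gained. Around Sox18, whose own regions were not gained, Oprl1, 43376 bp away, had 2 of 4 gained. Beyond the 50 kb limit and up to 100 kb, Sox17 was the nearest gene of 1 further region, 74450 bp away and called in all 14 libraries, while Sox7 and Sox18 had none. Just inside the limit lay the Sox17 region at 46854 bp.

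The number of called regions per library was compared with the same number for each of 11583 protein-coding genes with at least 3 regions, over the 14 libraries. For Sox17 the closest were Rab11fip2 (Pearson's r = 0.974), Stk32b (0.974) and Rab3il1 (0.970). For Sox7 they were Usp38 (0.923), Tpgs1 (0.893) and Psg19 (0.892). For Sox18 they were Ankrd1 (1.0), Bace2 (0.909) and Lancl3 (0.882), a ranking that rests on the 3 libraries with a Sox18 call. These values describe likeness of small counts from the same libraries and carry no p-value.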

How the data were processed

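ATAC-seq peak lists of 14 libraries, 2 at each of 7 time points, were used. Per the authors' methods reads went through the ENCODE ATAC-seq pipeline, and per the file names peaks passed an irreproducible discovery rate of 0.05 on pseudoreplicates of each library and a blacklist filter, which leaves replicates unpooled. The deposited lists give a score per peak, in an unnamed column on a scale not given in the sources used here, and it was used only as a percentile within its library. The submitters' processing notes name mm10 and GRCm38, and 0 of 839049 peaks ended past a GRCm38 chromosome. Lists held 55588 to 65073 peaks. They hold no read counts. The study lists read numbers per library in its supplement, which were not used here, and the study's count-based test could not be run.

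Peaks were merged (124598 regions, median 489 bp), assigned with GENCODE M21 gene 5′ ends, and compared in Python 3.11.15 with numpy 2.4.6, pandas 2.3.3 and matplotlib 3.10.9. Coordinates count from 1. The trend statistic was the summed rank of the times of the calling libraries, over all placements of the calls, and the script was tested on simulated data. Motifs were sought on both strands. GATA and SOX matches can share an end base. Member genes, gene lists and tests were chosen with earlier results of these data known. Every SoxF region called in both libraries of a time point is described. Sequences show, per gene, the rising and the falling region with the smallest trend p, plus the gained region with the most GATA matches in its central 200 bp. From the lists, the genes with the most gained regions are named, with any exception in direction. A further gene of the PrE list is not reported here. The percentile comparison and the octamer motif were added after values were seen. Alternatives covered stricter peak and overlap limits, other distances and start sites, a replicate block, and leaving out libraries.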

Additional observations from a re-analysis of the deposited data

How the results depend on the processing

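Of 76 alternative values for counts, 60 stayed within 1.5 times of the reported value or kept the call. These include the gained and lost counts of Sox18, which were 0 as reported and in every alternative and so say little. With 50000 peaks per library 2 SoxF regions fell over time. Requiring 50% of a region to be covered gave 3 falling regions and 2 lost Sox17 regions. Within 20 kb, where 11 SoxF regions remain, Sox17 had 2 gained and 0 lost, 3 regions rose and 7 held a GATA match. With genes of every biotype, where 9 remain, Sox17 had 0 gained and 0 lost, and 1 region rose. The numbers fall here because fewer regions are assigned. Without the 0 h libraries 7 regions rose and 0 fell after adjustment, with 1 falling at an unadjusted p under 0.05.

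Replicate numbers did not pair the libraries: same-numbered deviations correlated, for 21 pairs of time points, from -0.0152 to 0.0124. With the replicate block 7 regions rose, all at Sox17, and 0 fell after adjustment, with 1 falling at an unadjusted p under 0.05. The TSS region and the lost region of Sox7 then each had an adjusted p of 0.0555 in the exact permutation test.

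Leaving out either replicate gave 0 to 0 rising and 0 to 0 falling regions of 19, because 1 library per time point allows no smaller p than 0.0571 by the exact permutation test, and 0 at an unadjusted p under 0.05. Gained Sox17 regions then ranged from 7 to 9. Of 99 alternative trend values of single regions, 72 kept the call, 22 lost it, 5 gained it and 0 reversed. Settings that change only the gene a region is assigned to leave that region's own test unchanged, so its call was kept by construction. With either replicate left out no region could pass, so those outcomes were fixed as well. The median first time called, 16 h, ranged from 12 to 24 h. Depth, which the lists do not hold, limits every absent call.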
